A study of Mus musculus with 4 samples.

Results

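Collagen genes were followed across the stromal, mesothelial and muscle cells of the mouse common bile duct, the tube that carries bile from the liver to the intestine. Every gene whose symbol follows the collagen chain pattern (Col, a type number, the letter a and a chain number) was taken, provided that its identifier stood in all 4 count matrices and that it had at least 20 UMIs in total. A UMI, a unique molecular identifier, stands for a captured mRNA molecule. This gave 37 of the 30406 genes shared by the matrices: 9 fibrillar chains, 8 chains of basement membrane collagens and 20 chains of other types. A further 7 collagen genes were under 20 UMIs and were left out (Col6a4, Col9a2, Col11a1, Col10a1, Col22a1, Col9a1 and Col2a1).

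The study profiled single cells of whole ducts with the 10x Chromium 3′ chemistry, version 3 of the kit, in 3 wild-type libraries (WT1, WT2 and WT3) and in a single library labelled Prom1_BcatGOF, called GOF here. Per the labels, no group was treated and all cell types were captured after digestion with dispase and a bacterial protease. The series' design text speaks of a mosaic Ctnnb1 gain of function (Ctnnb1 encodes beta-catenin); the labels do not describe the construct, the driver, the share of recombined cells, the age or the sex of the animals. No label ties a wild-type library to an animal of its own, so the p-values reflect spread between libraries that may be purely technical. The single GOF library was assumed to vary like the wild-type libraries.

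Collagens are triple helices wound from 3 alpha chains, which are hydroxylated and folded in the endoplasmic reticulum before secretion. Types I, III and V assemble into the fibrils that give connective tissue its tensile strength, and fibroblasts are their best known source. Type IV forms the sheet-like network of basement membranes beneath epithelium and around vessels and muscle cells, to which types XV and XVIII attach. Type VI makes beaded filaments between the fibrils and the basement membrane, and types XII, XIV and XVI decorate fibril surfaces.

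Promoter windows are shown for 4 chains whose levels carry the contrast between fibrillar and basement membrane collagens. Each runs from 250 bases before to 50 after the annotated start, 5′ to 3′ on the gene's own strand (RefSeq, GRCm38.p6), with capitals marking 3 motifs that were searched on either strand. The first was TATAAA, the core of the box at which many tissue-restricted promoters position transcription. The second was CCAAT, the element bound by nuclear factor Y, and the last was GGGCGG, the element bound by Sp1 and its relatives. Col3a1, the only chain of type III, is shown from chr1:45311288-45311587 on the plus strand, and Col1a2, a chain of type I, from chr6:4505368-4505667 on the plus strand. Col4a1 is shown from chr8:11312777-11313076 on the minus strand and Col4a2 from chr8:11312555-11312854 on the plus strand.
Col3a1: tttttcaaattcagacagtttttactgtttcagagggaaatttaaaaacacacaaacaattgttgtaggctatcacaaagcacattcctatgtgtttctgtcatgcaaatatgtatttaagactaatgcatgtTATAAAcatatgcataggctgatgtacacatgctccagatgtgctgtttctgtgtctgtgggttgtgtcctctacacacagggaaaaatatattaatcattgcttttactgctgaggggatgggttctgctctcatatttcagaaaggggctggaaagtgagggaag
Col1a2: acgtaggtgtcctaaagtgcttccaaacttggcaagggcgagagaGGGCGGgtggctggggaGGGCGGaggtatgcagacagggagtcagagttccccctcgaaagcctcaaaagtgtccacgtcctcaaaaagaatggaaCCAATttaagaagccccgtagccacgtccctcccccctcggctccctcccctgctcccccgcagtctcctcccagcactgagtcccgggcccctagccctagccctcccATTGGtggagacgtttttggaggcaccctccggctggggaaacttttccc
Col4a1: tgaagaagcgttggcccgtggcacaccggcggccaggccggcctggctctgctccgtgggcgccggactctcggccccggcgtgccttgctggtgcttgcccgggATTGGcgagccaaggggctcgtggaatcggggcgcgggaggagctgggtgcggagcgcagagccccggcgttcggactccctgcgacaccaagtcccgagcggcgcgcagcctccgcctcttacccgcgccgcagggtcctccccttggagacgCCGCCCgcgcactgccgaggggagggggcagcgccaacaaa
Col4a2: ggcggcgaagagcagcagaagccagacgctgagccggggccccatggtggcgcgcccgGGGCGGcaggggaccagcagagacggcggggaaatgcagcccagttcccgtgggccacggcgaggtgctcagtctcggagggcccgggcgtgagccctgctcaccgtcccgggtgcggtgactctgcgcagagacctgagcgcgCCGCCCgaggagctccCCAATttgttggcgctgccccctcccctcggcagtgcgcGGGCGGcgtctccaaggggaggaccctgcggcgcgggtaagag
Col4a1 and Col4a2 lie head to head on opposite strands with starts 21 bases apart, and in the annotation their first bases overlap, as do their windows. The other 2 pairs of type IV chains also lie head to head but diverge without overlap at their starts, 72 bases apart for Col4a3 and Col4a4 on chromosome 1 and 1309 bases apart for Col4a5 and Col4a6 on chromosome X. The Col3a1 window held TATAAA 117 bases before the start and neither of the other motifs, at 37.7% G and C, while the Col4a1 and Col4a2 windows held no TATAAA at 74.0% and 73.7%. Windows were found for 30 of the 37 members (32 windows, since some genes have more than 1 start); Col1a1, Col14a1, Col5a2, Col4a3, Col12a1, Col9a3 and Col26a1 had none. TATAAA stood in 12.5% of the members' windows and in 13.6% of all 32851 windows, CCAAT in 31.3% and 37.4%, and GGGCGG in 62.5% and 35.7%. A match is a description of letters, not of a bound factor.

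Barcodes with 500 or more genes and no more than 25% mitochondrial UMIs were sorted into classes by raw markers. A cell joined a class when at least 3 of its markers had a UMI and this number was at least 2 above that of any other class. Fibroblasts numbered 340 in GOF and 90, 120 and 170 in WT1, WT2 and WT3. Mesothelial cells, the outer lining of the duct, numbered 480 and 123, 95 and 62. Mural cells, gated on markers of smooth muscle cells and pericytes, numbered 183 and 8, 40 and 62. A UMI of the pericyte marker Rgs5 was found in 20 of the GOF mural cells and in 1, 1 and 2 of the wild-type ones. The smooth muscle marker Myh11 had 121, 379 and 731 UMIs in the wild-type mural cells. Rgs5 had 7, 2 and 2 UMIs there. By Rgs5 and Myh11 the wild-type mural cells were mainly smooth muscle. Of the other mural markers, Notch3 had 14, 40 and 45 UMIs in WT1, WT2 and WT3 and Cspg4 had 5, 27 and 48. Kcnj8 had 1, 2 and 0, Higd1b 3, 1 and 5, and Abcc9 0 in each. The share of pericytes was not tested. Blood endothelial cells numbered 71 and 29, 26 and 46, lymphatic endothelial cells 107 and 38, 42 and 42, and epithelial cells 4971 and 2998, 1294 and 853. No cell passed the Schwann gate, a count of 0 in each library. Cells that met more than 1 class held 4.70% to 29.1% of a library's collagen UMIs, and cells that met none 5.31% to 16.9%, so those molecules are outside the values below.

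Depth differed between libraries, from 9558637 UMIs in WT3 to 113596685 in GOF, and the median mitochondrial share was 2.99% in GOF against 10.1% to 14.8% in the wild-type libraries. Pairs of libraries shared 5 to 19 cell barcodes. The GOF matrix and the wild-type matrices came from different Cell Ranger versions (below), so group and processing cannot be told apart. Because WT1 gave only 8 mural cells, its mural sum is shown as a value but did not enter a test. Levels are given as CPM, the UMIs of a gene per 1e6 UMIs of its class in a library. A 3′ library counts each molecule once near its end, so no value was divided by transcript length; the tests below set 1 gene against itself across classes or groups, and where UMIs of different genes are set side by side they are molecule counts.

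Type I and type III chains were highest in fibroblasts, lower in mesothelial cells and far lower in mural cells. In fibroblasts Col3a1 stood at 4660, 4355 and 2904 CPM in WT1, WT2 and WT3 and at 7038 in GOF. In mesothelial cells it stood at 1934, 3359 and 3014 CPM, and at 1796 in GOF. In mural cells it stood at 28.2, 104 and 103 CPM, and at 652 in GOF. The wild-type mural values of Col3a1 lay below all fibroblast and mesothelial values, whereas the mesothelial range overlapped that of fibroblasts. Col1a1, the first chain of type I, was at 2127, 1739 and 1271 CPM in wild-type fibroblasts, 439, 800.0 and 448 in mesothelial cells and 56.4, 60.6 and 134 in mural cells. Its partner Col1a2 was at 3266, 3455 and 2741 CPM in fibroblasts, 1037, 2247 and 1736 in mesothelial cells and 28.2, 129.8 and 149 in mural cells. For both type I chains the 3 classes did not overlap in the wild-type libraries. A Col1a1 UMI was found in 98.9%, 90.0% and 66.5% of wild-type fibroblasts, in 17.5% and 29.0% of mural cells of WT2 and WT3, and in 0.567%, 3.17% and 1.29% of epithelial cells, which are not expected to make it.

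Type V chains, which regulate the width of type I fibrils, were present at lower levels in these classes. Col5a1 was at 308, 224 and 211 CPM in wild-type fibroblasts, 60.4, 127 and 62.6 in mesothelial cells and 0, 8.65 and 35.9 in mural cells. Col5a2 was at 431, 306 and 215 CPM in fibroblasts, 146, 263 and 167 in mesothelial cells and 28.2, 34.6 and 51.4 in mural cells. Col5a3 was more uneven between libraries, at 34.5, 76.1 and 9.76 CPM in fibroblasts and 8.37, 45.1 and 5.21 in mesothelial cells, with 0 UMIs in wild-type mural cells. The fibrillar chain Col27a1 averaged 15.5 ± 7.07 CPM in fibroblasts and 13.2 ± 4.03 in epithelium (SD, n = 3), ranges that overlapped. Col24a1 was at 0, 13.3 and 6.50 CPM in fibroblasts, and Col11a2 had 0 UMIs in wild-type fibroblasts.

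Basement membrane collagens had another order of classes, with mural cells at the top for Col4a2 and Col18a1. Col18a1, whose product carries endostatin at its end, was at 339, 545 and 729 CPM in wild-type mural cells, 195, 162 and 154 in mesothelial cells and 94.9, 66.6 and 39.0 in fibroblasts, so these 3 classes did not overlap. It was at 352, 295 and 184 CPM in lymphatic and 229, 90.2 and 63.3 in blood endothelium. Col4a1, which joins every basement membrane as a heterotrimer with Col4a2, was at 254, 389 and 519 CPM in mural cells, 523, 426 and 344 in lymphatic endothelium, 389.6, 235 and 152 in blood endothelium, 342, 105 and 380.5 in fibroblasts and 152, 111 and 119.9 in mesothelial cells. Neighbouring classes in this order overlapped. Col4a2 was at 339, 294 and 493 CPM in mural cells and at 97.7, 45.7 and 169 in fibroblasts. Col15a1, which sits between basement membrane and fibrils, was at 229, 126 and 63.3 CPM in blood endothelium and at 74.7, 70.4 and 29.3 in fibroblasts. It rested on 2 UMIs in wild-type mesothelial cells and on 0 in mural and lymphatic cells.

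The ratio of Col4a1 to Col4a2 UMIs, 2 chains that assemble together, was 2.68 ± 0.71 in wild-type fibroblasts, 2.47 ± 0.36 in mesothelial cells and 1.04 ± 0.29 in mural cells (SD, n = 3). The mural value includes WT1, where it rests on 9 and 12 UMIs. The alternative chains were scarcer than Col4a1 in fibroblasts and mesothelial cells. In mesothelial cells Col4a5 was not scarcer than Col4a2, which was at 60.4, 39.8 and 57.4 CPM in WT1, WT2 and WT3. Col4a5 was at 37.4, 68.5 and 39.0 CPM in wild-type fibroblasts and 61.4, 66.3 and 80.8 in mesothelial cells; Col4a6 was at 20.1, 9.51 and 19.5 and at 21.4, 23.9 and 46.9. Col4a3 and Col4a4, chains best known from kidney filters, averaged 6.64 and 14.9 CPM in fibroblasts.

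Among the other types, the fibril-associated chain Col14a1 stood out as a fibroblast transcript, at 837, 411 and 569 CPM in wild-type fibroblasts against 164, 115 and 119.9 in mesothelial cells and 28.2, 0 and 5.14 in mural cells. In epithelium Col14a1 was at 20.9, 20.5 and 16.9 CPM, above the epithelial level of Col3a1 (2.20, 22.5 and 7.06) in 2 of 3 libraries although fibroblasts held far more Col3a1. The type VI chains split. Col6a1 was at 733, 426 and 452 CPM in fibroblasts and at 490.0, 588 and 521 in mesothelial cells, ranges that overlapped, but at 0, 0 and 20.5 in mural cells. Col6a3, the long chain of the same heterotrimer, was at 236, 105 and 107 CPM in fibroblasts, 51.1, 38.5 and 41.7 in mesothelial cells and 56.4, 112 and 97.6 in mural cells. The fibroblast and mural ranges of Col6a3 overlapped, with 2 of 3 mural values below the lowest fibroblast value, whereas those of Col6a1 did not overlap. Col6a2 followed Col6a1, at 420 CPM in WT1, 266 in WT2 and 279.7 in WT3 fibroblasts and at 0, 26.0 and 20.5 in mural cells. Col6a5, an alternative long chain, was at 48.9, 198 and 224 CPM in fibroblasts, 41.8, 65.0 and 78.2 in mesothelial cells and 0, 8.65 and 5.14 in mural cells.

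Col16a1, another fibril-associated chain, was at 94.9, 55.2 and 71.5 CPM in wild-type fibroblasts and at 109.7, 61.0 and 67.8 in mesothelial cells, ranges that overlapped, and rested on 1 UMI in mural cells. Col23a1 had 0 UMIs in the 3 classes of the wild-type libraries. The remaining 13 other-type chains were scarce there. Col12a1, a fibril-surface chain, averaged 36.1 ± 17.6 CPM in wild-type fibroblasts, and Col6a6 averaged 38.6 ± 11.3 (SD, n = 3). Col8a1, a network-forming chain of vessel walls, averaged 9.11 ± 3.67 CPM in fibroblasts and had 0 UMIs in wild-type mesothelial cells. The other 10 (Col7a1, Col8a2, Col9a3, Col13a1, Col17a1, Col19a1, Col20a1, Col25a1, Col26a1 and Col28a1) each averaged at most 5.09 CPM in wild-type fibroblasts, the level of Col8a2.

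**Figure D1:**
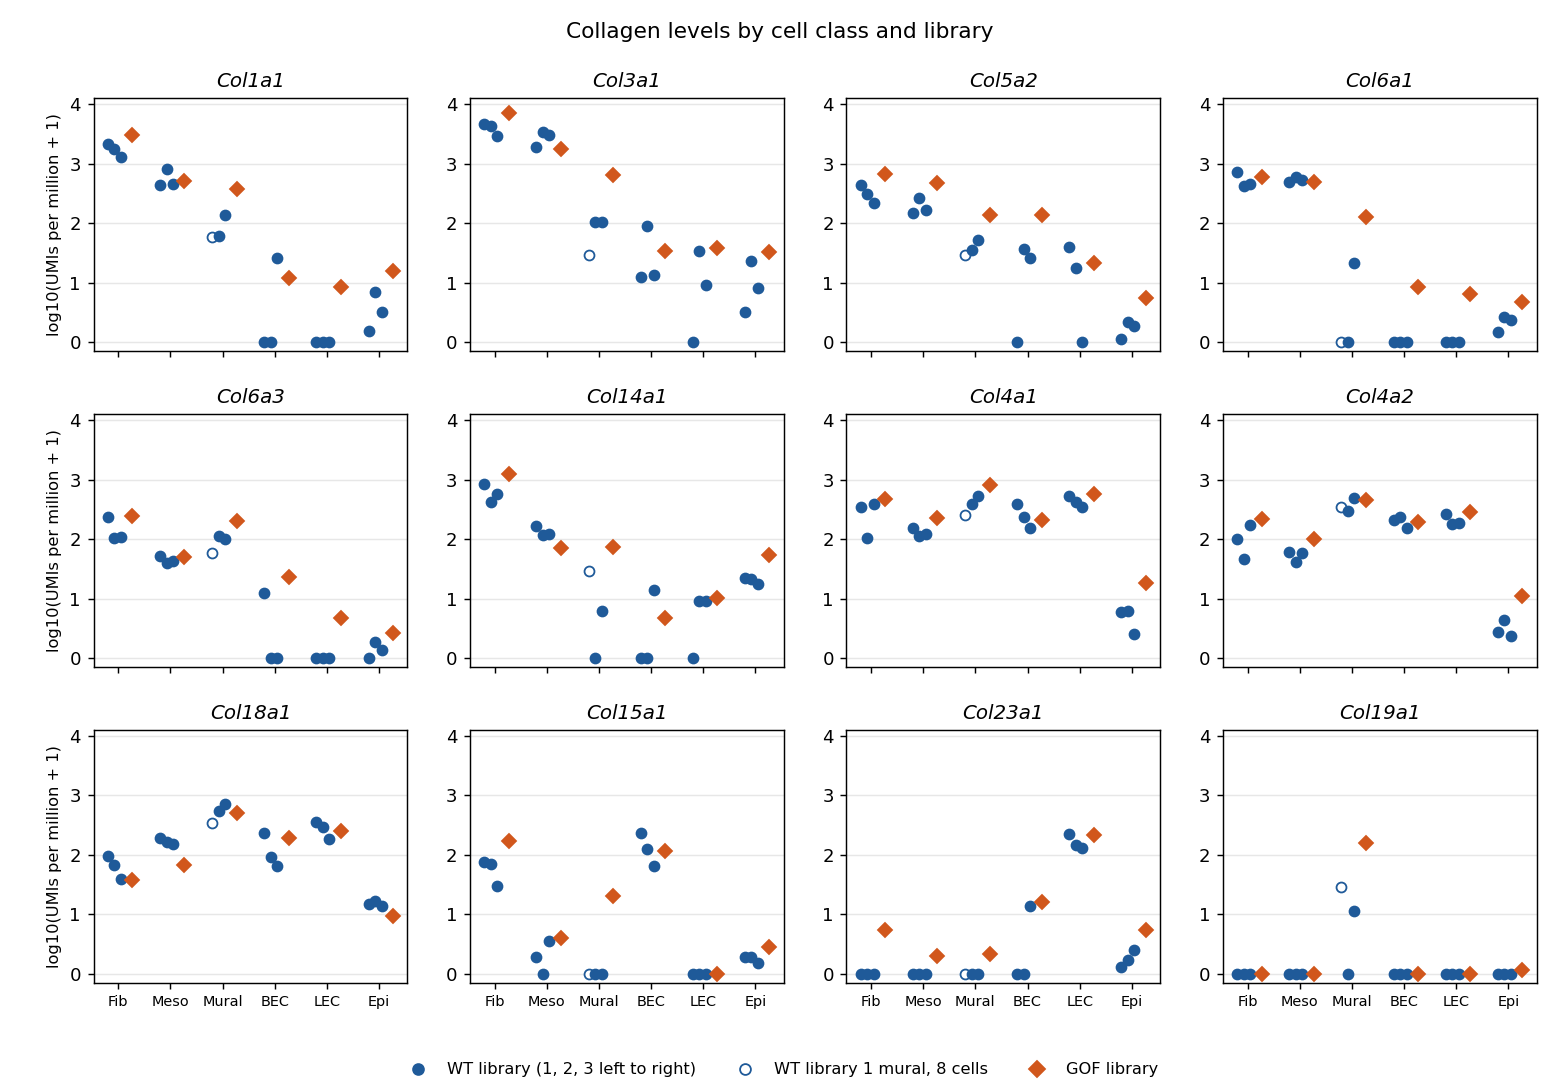
Levels of 12 collagen genes in fibroblasts (Fib), mesothelial cells (Meso), mural cells, blood (BEC) and lymphatic (LEC) endothelium and epithelium (Epi), as log10(CPM + 1); circles are the wild-type libraries (open for the WT1 mural sum of 8 cells) and diamonds the GOF library. Wild-type Col3a1 and Col1a1 are lower in mural cells than in fibroblasts, while Col18a1 is higher in mural cells (339 to 729 CPM) than in fibroblasts (39.0 to 94.9 CPM).

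These levels add up to different collagen mixtures. Members made up 14009, 12123 and 9863 CPM of wild-type fibroblasts, 5330, 8588 and 7081 of mesothelial cells and 1326, 1860 and 2501 of mural cells. Epithelial cells held 91.1, 149 and 95.5 CPM. Fibrillar chains made up 78.7% ± 4.74 of collagen UMIs in wild-type fibroblasts and 75.0% ± 6.14 in mesothelial cells, but 16.7% ± 3.49 in mural cells (SD, n = 3). Basement membrane chains made up 5.05% ± 1.99, 7.36% ± 2.83 and 73.8% ± 0.559. In the blood and lymphatic endothelium the basement membrane share was 81.5% and 78.3%. In each wild-type library the basement membrane share of mural cells was above that of fibroblasts and mesothelial cells. With cells gated on 2 markers and a margin of 1, the wild-type mural shares were 27.4% fibrillar and 62.6% basement membrane.

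**Figure D2:**
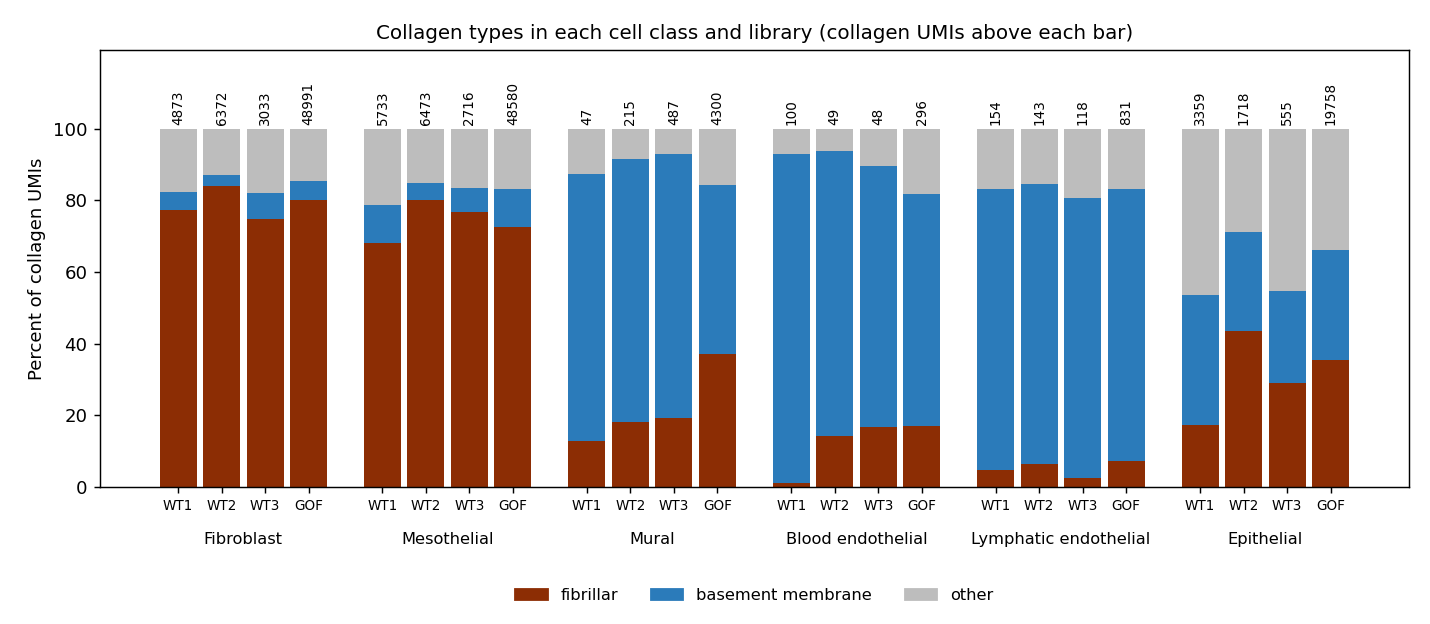
Percent of collagen UMIs that are fibrillar, basement membrane or other, by class and library, with the number of collagen UMIs above each bar. Fibrillar chains take most of the bars of fibroblasts and mesothelial cells, and basement membrane chains those of wild-type mural and endothelial cells.

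Wild-type classes were compared in a single edgeR quasi-likelihood fit over 4393 genes, with the library as a block and mural sums from WT2 and WT3. Of the 37 members, 17 passed the filter on low counts; Col23a1 did so only through lymphatic endothelium and had 0 UMIs in fibroblasts, mesothelial and mural cells. Against fibroblasts, mural cells were higher for 3 of the 17 members and lower for 11 at a Benjamini-Hochberg adjusted p under 0.05, where 13.0% and 16.1% of all tested genes were higher and lower. The members' median log2 difference was -3.66 (-3.14 with Col15a1 at its bound) and that of all genes -0.15. Col18a1 was 12.3-fold higher in mural cells (log2 difference 3.62 ± 0.31 SE, edgeR adjusted p = 4.12e-08), Col4a2 4.43-fold (2.15 ± 0.35, 8.21e-05) and Col4a1 2.09-fold (1.07 ± 0.36, 0.0314). Each was higher in mural cells in 2 of 2 libraries. The Col4a1 call was lost without any 1 of WT1, WT2 and WT3 (edgeR adjusted p from 0.0520 to 0.0926), without the replicate block (0.213) and with DESeq2 (0.0727). All 5 tested fibrillar chains were lower: Col3a1 37.9-fold (log2 -5.25 ± 0.41 SE, edgeR adjusted p = 1.08e-08), Col1a2 23.2-fold, Col1a1 15.2-fold, Col5a1 8.80-fold and Col5a2 6.14-fold. Col6a1 was 36.1-fold and Col6a2 12.6-fold lower, whereas the log2 difference of Col6a3 was -0.08 ± 0.36 (edgeR adjusted p = 0.911). Col15a1 had 0 mural UMIs and was at least 6.31-fold lower, from a floor of 3 counts over the mural sums; this call was lost without WT2 or WT3 (edgeR adjusted p = 0.0714 and 0.0526). The ratio of mural to fibroblast level was 0.00558 for Col14a1 (1 mural UMI; 95% counting interval 0.000141 to 0.0312), 0.0401 for Col6a5 (2 UMIs; 0.00482 to 0.147) and 0.0453 for Col16a1 (1 UMI; 0.00113 to 0.259).

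Mesothelial cells differed from fibroblasts in the same fit by smaller amounts: 1 member was higher and 9 were lower, where 8.51% and 9.99% of all tested genes were higher and lower. The members' median log2 difference was -0.93 and that of all genes -0.02. Col18a1 was higher, by 1.33 ± 0.28 on the log2 scale (SE, edgeR adjusted p = 0.00143), in 3 of 3 libraries. Col14a1 (log2 -2.18 ± 0.24, edgeR adjusted p = 1.41e-06), Col6a3 (-1.78 ± 0.26), Col1a1 (-1.66 ± 0.29), Col5a1 (-1.63 ± 0.30) and Col1a2 (-1.02 ± 0.21) were lower in 3 of 3 libraries. The remaining lower chains were Col6a5 (log2 -1.25, edgeR adjusted p = 0.00220), Col4a1 (-1.06, 0.0206) and Col4a2 (-0.93, 0.0487), and these 3 did not pass with DESeq2 (adjusted p = 0.0669, 0.0566 and 0.112). Without WT1 the calls of Col4a1, Col4a2 and Col1a2 were lost (edgeR adjusted p = 0.159, 0.151 and 0.0750), and without WT3 those of Col4a1, Col4a2 and Col6a5 (0.308, 0.484 and 0.0797). Col15a1 was lower on 2 mesothelial UMIs, a ratio of 0.0148 (95% counting interval 0.00176 to 0.0555). Col4a1 was lower in only 2 of 3 libraries. Col3a1 did not pass the threshold (log2 -0.59 ± 0.26, edgeR adjusted p = 0.136), nor did Col5a2 (-0.76 ± 0.31, 0.0980), Col6a1 (-0.01 ± 0.26) or Col6a2 (-0.11 ± 0.25). Mesothelial cells carried fibroblast marker UMIs, at 9630 to 10283 CPM summed over the 8 markers in the wild-type libraries, with 1 of the 8 at 0 in WT3. Fibroblasts of the 4 libraries held 16413 to 25798 CPM. Most of the mesothelial sum was Dcn, at 8061, 8837 and 9133 CPM in WT1, WT2 and WT3. Pdgfra was at 18.6, 182 and 123 CPM there, Lum at 10.2, 5.31 and 18.3, and Dpt at 0.93, 1.33 and 0. The part of fibroblast RNA in the mesothelial collagen levels was not tested.

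Set directly against mural cells, mesothelial cells were higher for 9 members and lower for 4, where 16.1% and 13.8% of all tested genes were higher and lower. Higher were Col6a1 (log2 difference 5.16 ± 0.56 SE), Col3a1 (4.66 ± 0.40), Col6a2 (3.55 ± 0.48), Col1a2 (3.52 ± 0.31), Col1a1 (2.26 ± 0.42) and Col5a2 (1.85 ± 0.52, edgeR adjusted p = 0.0102). The mesothelial to mural ratio was 43.3 for Col14a1 (95% counting interval 7.72 to 1717), 26.6 for Col16a1 (4.72 to 1058) and 8.69 for Col6a5 (2.36 to 72.6), each on 1 or 2 mural UMIs. The Col5a2 call was lost without WT2 and the Col6a5 call without WT3 (edgeR adjusted p = 0.0873 and 0.0823). Lower were Col4a2 (log2 -3.08 ± 0.36), Col18a1 (-2.29 ± 0.29), Col4a1 (-2.13 ± 0.37, edgeR adjusted p = 0.000146) and Col6a3 (-1.69 ± 0.38). Blood endothelium against fibroblasts had no member higher and 12 lower, where 15.7% of all tested genes were lower. Over all genes 518 were higher and 691 lower there, and 672 and 558 without TMM scaling. Of the 5 tested basement membrane chains, Col4a5 was lower (0 endothelial UMIs, at least 3.82-fold, edgeR adjusted p = 0.00126), and Col4a1, Col4a2, Col18a1 and Col15a1 did not pass (log2 differences -0.28, 0.74, 0.70 and 1.01). Among the others, Col6a1 and Col6a2 had 0 endothelial UMIs and were at least 38.7-fold and 23.3-fold lower.

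The GOF library entered none of these fits and gives the same class differences measured once more. Of the members past the threshold, 14 of 14 had the same sign in GOF for mural against fibroblast, 10 of 10 for mesothelial against fibroblast, 12 of 12 for blood endothelial against fibroblast and 12 of 13 for mesothelial against mural. The exception was Col14a1, whose GOF log2 difference was -0.08. The share of all called genes with the same sign is not given, so these counts are not read as particular to collagens.

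**Figure D3:**
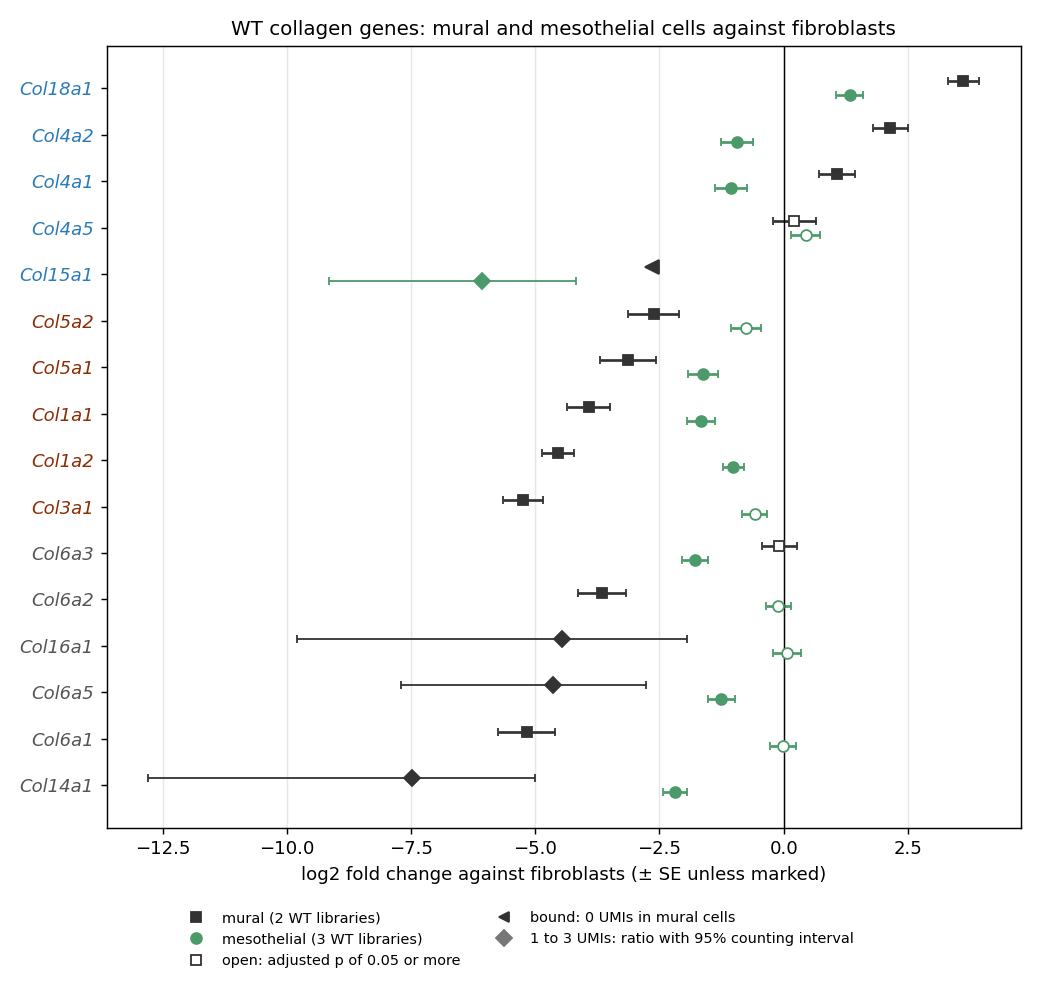
Log2 difference of mural and mesothelial cells from fibroblasts in the wild-type libraries, with SE bars; the triangle is a bound (Col15a1, 0 mural UMIs) and diamonds are ratios on 1 to 3 UMIs with their 95% counting interval. Col18a1, Col4a2 and Col4a1 lie above 0 in mural cells, and the fibrillar chains lie below 0 from -2.62 to -5.25.

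Genes that fold, process and bind collagen were counted from 4 lists in the same fit. In mural cells against fibroblasts, 13.0% of all tested genes were higher and 16.1% lower. Of the chaperones and hydroxylases of collagen folding, 13 of 20 were tested in mural cells against fibroblasts, with 9 lower and 1 higher. Lower were Ppib, a prolyl isomerase (log2 -1.50), P4ha1, a prolyl 4-hydroxylase (-2.46), and Serpinh1, the collagen chaperone HSP47 (-1.45); Tmem38b, an ion channel of the endoplasmic reticulum, was higher (2.04). Of 8 tested genes of propeptide cleavage and crosslinking, 7 were lower and 0 higher: Pcolce2, an enhancer of procollagen cleavage, was at least 49.5-fold lower, and Adamts2, which removes the amino-terminal propeptide, was lower by a log2 of -4.30. Of 4 tested collagen receptors 2 were higher, the integrins Itga1 (log2 3.12 ± 0.56 SE) and Itgb1 (1.90 ± 0.23), and 1 was lower, the kinase receptor Ddr2 (-1.59). Of 11 other basement membrane genes tested, 2 were higher, the laminin chains Lama5 (log2 4.24) and Lamb2 (1.46), and 7 were lower, among them Sparc (-1.78) and Lamb1 (at least 21.4-fold).

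In mesothelial cells against fibroblasts, 8.51% of all tested genes were higher and 9.99% lower. There the same lists held 2 lower and 1 higher of 13 folding genes, near these shares, and 5 lower of 8 processing genes. They also held 1 lower and 1 higher of 4 receptors, and 5 lower and 1 higher of 11 other basement membrane genes. The receptor that was higher was Ddr1 (log2 2.03 ± 0.37 SE) and the lower was Ddr2 (-1.50). Lama5 was higher again (2.14), while Lama2 (-5.83), Nid1 (-2.76) and Lamc1 (-2.02) were lower.

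Fibroblasts with a UMI of Pi16, a marker of adventitial fibroblasts, were compared with the other fibroblasts of each wild-type library (65 against 25 cells in WT1, 50 against 70 in WT2 and 50 against 120 in WT3). By edgeR's quasi-likelihood test 0 of 15 tested members passed, 2 had an unadjusted p under 0.05, and DESeq2 called 0, with 1 at that level. Of all tested genes 0.509% passed. The median fibroblast held 3681, 2778 and 1551 UMIs in WT1, WT2 and WT3, so a cell with no Pi16 UMI can still express Pi16. Pi16 was also 1 of the 8 fibroblast gate markers. Col14a1 was higher in Pi16-positive cells in 3 of 3 libraries (log2 0.81 ± 0.36 SE, edgeR adjusted p = 0.550), and Col6a5 was lower in 3 of 3 (-1.12 ± 0.34, 0.338). Col1a1, Col1a2 and Col3a1 had log2 differences of -0.27 ± 0.21, -0.28 ± 0.18 and -0.28 ± 0.18.

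The GOF library was compared with the wild-type libraries class by class. In fibroblasts, 1 of 23 tested members was higher and 0 were lower, where 3.65% and 0.459% of all tested genes were higher and lower; 4 members had an unadjusted p under 0.05, and DESeq2 called 0, with 1 at that level. The member past the threshold was Col24a1, at 97.4 CPM in GOF (238 UMIs) against 0, 13.3 and 6.50 in the wild-type libraries (9 UMIs), a log2 difference of 3.49 ± 0.70 (SE, edgeR adjusted p = 0.0295). Without WT3 this call was lost. Of the 238 GOF UMIs of Col24a1, 219 were in fibroblasts with no Pi16 UMI (249 CPM) and 19 in Pi16-positive ones (12.2 CPM). The wild-type means were 6.51 ± 7.37 and 6.77 ± 5.93 CPM (SD, n = 3). The GOF difference is therefore not shown for Pi16-positive fibroblasts, and it was not tested within these subsets. The members' median log2 difference was 0.58 and that of all genes -0.07. Over all genes 278 were higher and 35 lower, and 137 and 76 by DESeq2, which scales libraries by its own size factors. Col3a1, Col1a1 and Col1a2 lay above all 3 wild-type values but did not pass (log2 0.62 ± 0.42, 0.61 ± 0.45 and 0.38 ± 0.41; edgeR adjusted p from 0.484 to 0.662), and Col18a1, at 37.2 CPM, lay below them (-1.05 ± 0.51, edgeR adjusted p = 0.328).

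In mesothelial cells 2 of 22 tested members were higher in GOF and 2 were lower, where 6.22% and 1.62% of all tested genes were higher and lower. Higher were Col24a1 (66.1 CPM against 0, 13.3 and 0; log2 3.68 ± 0.87 SE, edgeR adjusted p = 0.0353) and Col4a6 (109 against 21.4, 23.9 and 46.9; 1.78 ± 0.39, 0.0255). Lower were Col6a5 (14.6 CPM against 41.8, 65.0 and 78.2; log2 -2.18 ± 0.43, edgeR adjusted p = 0.0172) and Col18a1 (66.2 against 195, 162 and 154; -1.52 ± 0.35, 0.0311). DESeq2 called 0 members higher and 2 lower, and over all genes 342 and 181 in place of 601 and 157. Col3a1 (log2 -0.78 ± 0.41, edgeR adjusted p = 0.308) and Col5a2 (1.14 ± 0.38, 0.112) did not pass. The UMI ratio of Col3a1 to Col5a2 in mesothelial cells was 3.80 in GOF against 13.2, 12.8 and 18.1 in the wild-type libraries.

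Over all tested genes, those with long introns had the larger GOF differences. Among the members Spearman's rho was lower (below), on 16 to 23 genes, none with less than 10.3 kb of intron. Whether the relation among the members differs from that of all genes was not tested. The file headers name Cell Ranger 7.0.0 for GOF and 3.0.2 for the wild-type libraries; later versions of this program count intronic reads by default, and the setting used is not given in the sources used here. Among all tested genes, the median log2 difference of GOF from wild type was -0.51 in fibroblasts for genes with at most 5 kb of intron and 2.02 for genes with 200 kb or more, of which 36.0% were past the threshold as higher. The corresponding medians were -0.29 and 1.67 in mesothelial cells and -0.36 and 1.93 in mural cells. The 4 tested members with 200 kb or more had medians of 1.22 in fibroblasts, 1.30 in mesothelial cells and 3.41 in mural cells. Col24a1, Col4a6, Col19a1, Col14a1 and Col4a5 hold 252, 301, 319, 206 and 207 kb of intron; Col1a1, Col6a1 and Col3a1 hold 10.3, 13.0 and 28.4 kb. Across genes, Spearman's rho between intron length and the log2 difference was 0.57 in fibroblasts (0.36 over the 23 members), 0.42 in mesothelial cells (0.25 over 22) and 0.46 in mural cells (0.24 over 16); the genes share these libraries and are not independent. The part of intron length in the members' differences was not tested. Col6a1, with 13.0 kb, had a log2 difference of 3.09 in mural cells, and 2.32 among those with no fibroblast marker UMI (below). Col14a1, with 206 kb, had -1.09 in mesothelial cells (69.8 CPM, below all 3 wild-type values, edgeR adjusted p = 0.105). Col6a5 and Col18a1, with 95.2 and 107 kb, were lower in GOF mesothelial cells.

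**Figure D4:**
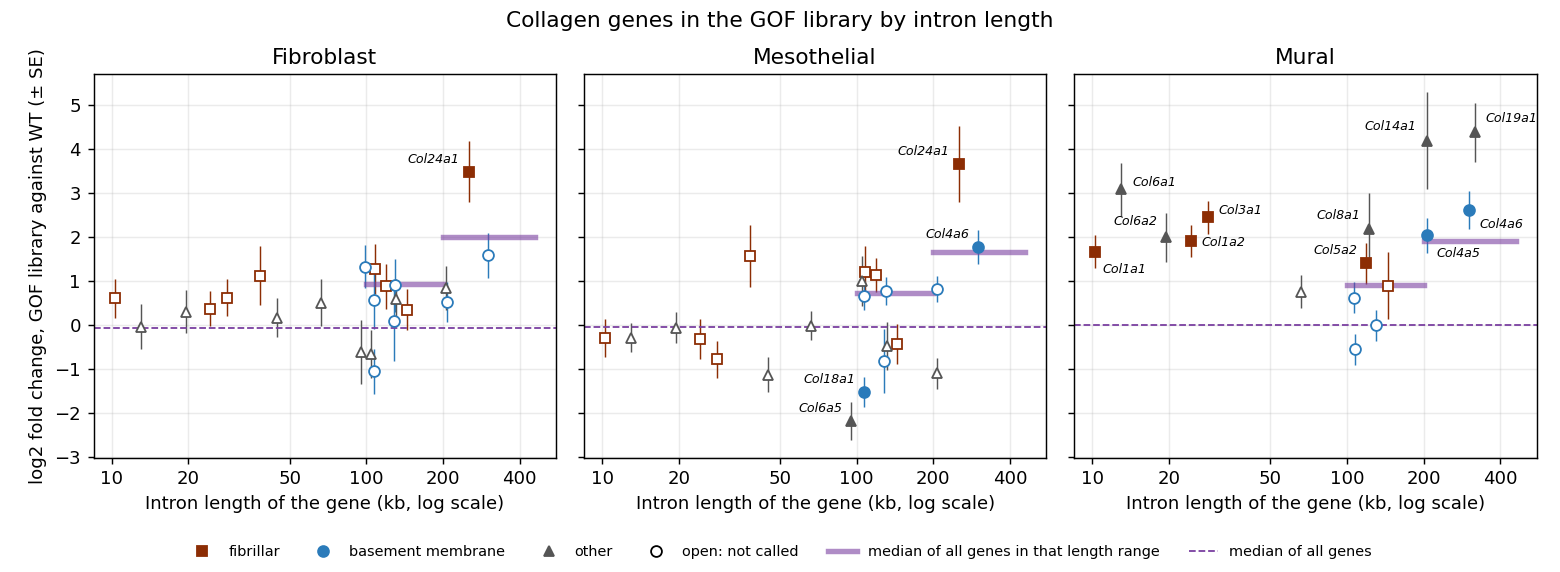
Log2 difference of GOF from wild type against the summed intron length of each tested collagen gene in kb, in fibroblasts, mesothelial and mural cells; purple bars are the medians of all tested genes with 100 to 200 kb and with 200 kb or more, and filled symbols passed the threshold. Col24a1 and Col4a6 lie at the long end, where the all-gene medians are 1.67 to 2.02.

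In mural cells 11 of 16 tested members were higher in GOF and 0 were lower, where 13.7% and 7.24% of all tested genes were higher and lower; DESeq2 called 2 of the 16. Over all genes 532 were higher and 282 lower, and 753 and 159 without TMM scaling. Only WT2 and WT3 entered this fit, leaving 1 residual degree of freedom. Besides Col19a1 and Col14a1, on 2 and 1 wild-type UMIs (ratios 24.9 and 22.9; 95% counting intervals 6.76 to 208 and 3.96 to 918), the higher members were Col6a1 (log2 3.09 ± 0.60 SE), Col4a6 (2.62 ± 0.42), Col3a1 (2.46 ± 0.37), Col8a1 (2.20 ± 0.80), Col4a5 (2.04 ± 0.41), Col6a2 (2.00 ± 0.55), Col1a2 (1.92 ± 0.36), Col1a1 (1.67 ± 0.37) and Col5a2 (1.41 ± 0.46, edgeR adjusted p = 0.0148). The main mural chains did not pass: Col18a1 (503 CPM in GOF; log2 -0.55 ± 0.36), Col4a2 (461; 0.00 ± 0.36) and Col4a1 (812; 0.63 ± 0.35, edgeR adjusted p = 0.204). Fibrillar chains made up 37.1% of collagen UMIs in GOF mural cells against 12.8%, 18.1% and 19.3% in WT1, WT2 and WT3.

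Fibroblast markers moved with this result. Their summed level in mural cells was 566 CPM in GOF but 28.2, 43.3 and 46.2 in WT1, WT2 and WT3. Most of the GOF sum was Dcn, at 423 against 0, 34.6 and 35.9. Dcn was not particular to fibroblasts, since wild-type mesothelial cells held 8061 to 9133 CPM of it. Dpt was at 38.0 CPM in GOF mural cells, with 0 UMIs in the wild-type ones. The summed mesothelial markers were at 65.4 CPM in GOF mural cells against 0, 17.3 and 5.14. The mural markers differed too, in both directions. Rgs5 was at 282 against 198, 17.3 and 10.3 CPM, Lmod1 at 1600 against 452, 684 and 668, and Actg2 at 536 against 395, 450 and 416. Myh11 was at 3901 against 3415, 3279 and 3754, and Abcc9 at 35.7 against 0 in each. Acta2 was lower, at 14552 against 23763, 25324 and 20499, as was Cnn1, at 602 against 847, 900 and 1006. Des, Notch3, Cspg4, Kcnj8 and Higd1b lay within the wild-type range. The part of mural subtypes in the result was not tested. Among mural cells with no fibroblast marker UMI (149 of 183 in GOF, 35 of 40 in WT2 and 55 of 62 in WT3), a choice made after the data were seen, 5 of 14 tested members were higher, where 11.5% of all tested genes were. The members' median log2 difference was 0.95 in that fit and 1.96 over all mural cells, and that of all genes 0.0058 and 0.0045. Col1a1 was then at -0.16 ± 0.42 (edgeR adjusted p = 0.836), Col5a2 at -0.02 ± 0.65 and Col1a2 at 0.24 ± 0.39. Col3a1 stayed higher (log2 1.10 ± 0.40, edgeR adjusted p = 0.0346), as did Col6a1 (2.32 ± 0.83), Col4a5 (2.20 ± 0.43), Col4a6 (2.97 ± 0.45) and Col19a1. A cell with no marker UMI can still hold other fibroblast RNA at this depth.

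**Figure D5:**
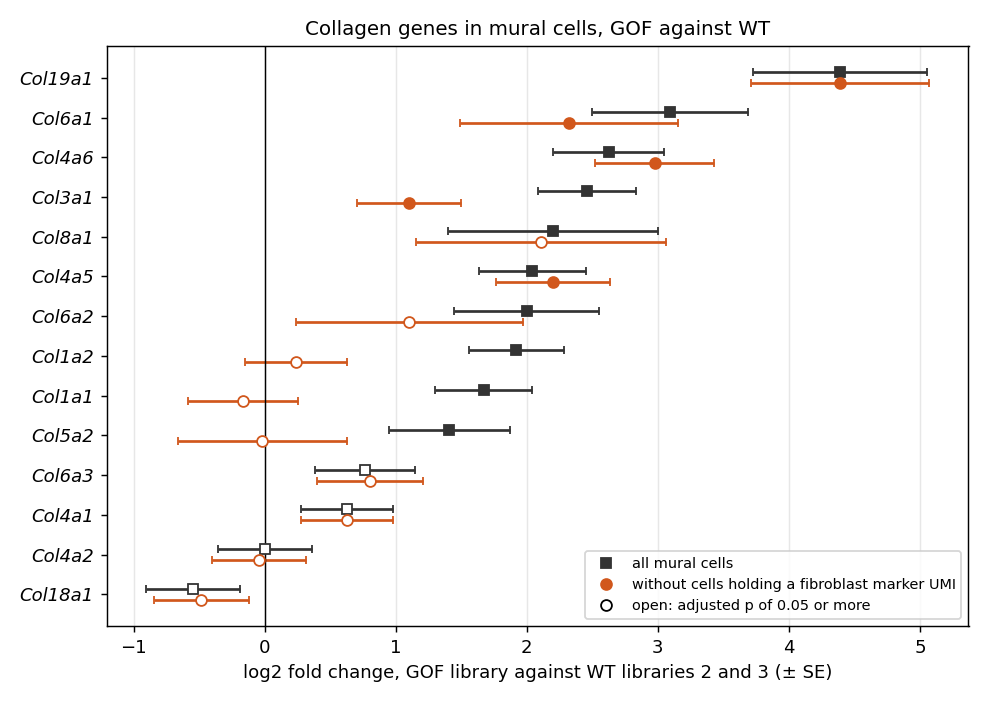
Log2 difference of GOF from wild type in mural cells, with SE bars, for all gated mural cells and for those with no fibroblast marker UMI; Col5a1 and Col14a1 were not tested in the latter. The type I chains and Col5a2 move to near 0 (-0.16 to 0.24), and the long type IV chains Col4a5 and Col4a6 stay between 2.04 and 2.97.

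Whether the GOF difference itself was unequal between classes was tested by an interaction term, with library as block. For mesothelial cells minus fibroblasts 0 of 25 tested members passed by edgeR (6 at an unadjusted p under 0.05; DESeq2 0, with 3 at that level), where 0.152% of all tested genes passed. The lowest adjusted p was that of Col14a1 (log2 difference of differences -1.93 ± 0.40 SE, edgeR adjusted p = 0.0624), and without any 1 of the wild-type libraries it was between 0.00137 and 0.0261. For mural cells minus fibroblasts 0 of 24 passed (6 at an unadjusted p under 0.05; DESeq2 0, with 2 at that level), where 0.520% of all tested genes passed; Col6a1 had 2.98 ± 0.92 (edgeR adjusted p = 0.145). In blood endothelium 0 of 6 tested members passed between GOF and wild type by edgeR, where 17.2% of all tested genes passed. At an unadjusted p under 0.05 there were 2 members by edgeR and 0 by DESeq2, which called 0. Over all genes 262 were higher and 121 lower, and 350 and 93 without TMM scaling. Col4a1, Col4a2, Col15a1 and Col18a1 had log2 differences between -0.38 and 0.47 there. Col5a2 and Col8a1, each on 36 GOF and 4 wild-type UMIs, lay above all 3 wild-type values without passing. Their log2 differences were 2.70 ± 1.28 and 2.68 ± 1.28 (SE, edgeR adjusted p = 0.132 and 0.135).

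The 4 lists of folding, processing, receptor and basement membrane genes were counted in the GOF comparisons too. In fibroblasts, where 3.65% of all tested genes were higher and 0.459% lower, 0 of 17, 9, 6 and 11 tested genes of the 4 lists passed. In mesothelial cells 2 of 10 genes of propeptide cleavage and crosslinking were higher, Tll1 (log2 2.47 ± 0.38 SE, edgeR adjusted p = 0.00604) and Adamts3 (160 UMIs in GOF and 0 in the wild-type libraries, at least 15.1-fold), where 6.22% of all tested genes were higher, and 0 of the 17, 6 and 13 genes of the other lists passed. In mural cells, where 13.7% of all tested genes were higher, 1 of 4 receptors, Itga1 (log2 1.33), and 3 of 7 other basement membrane genes were higher, among them Sparc (1.36) and Smoc1 (2.30), while 0 of 8 folding and 0 of 3 processing genes passed. In blood endothelium, where 11.8% of all tested genes were higher, 1 of 2 processing genes and 1 of 6 other basement membrane genes were higher. These were Tll1, on 2 wild-type UMIs (ratio 26.0, 95% counting interval 6.90 to 219), and Lama3, on 3 (14.3, 4.63 to 71.5).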

How the data were processed

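The values are UMI counts as deposited by the authors, unnormalised and for called cells, made with Cell Ranger 7.0.0 (GOF) or 3.0.2 (wild type), per the file headers; the submitters' processing notes name Cell Ranger 7.1 and mm10. The reference release and intron setting: not given in the sources used here. Only genes with an identifier in all 4 files were used.

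UMIs were summed per library and marker-gated class; cells are not replicates. Sums of at least 10 cells entered edgeR 4.0.16 in R 4.3.3 (TMM factors, filterByExpr, quasi-likelihood test), and p-values were adjusted by Benjamini-Hochberg over all tested genes, at 0.05. Classes of the wild-type libraries come from the same libraries, so the library was a block. SE is the log2 difference divided by the square root of its F statistic. CPM and composition carry no test. Bounds use a floor of 3 counts over the group, and exact 95% intervals cover counting error only. No doublet caller was run; leaving out the top 5% of cells by UMIs is an alternative. The mural test had been set for all 3 wild-type libraries; with 8 mural cells, WT1 was left out of it, a change made after the data were seen.

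Intron lengths and coordinates came from GENCODE (GRCm38), promoters from RefSeq. The named chains were 15 set by name (Col1a1, Col1a2, Col3a1, Col4a1, Col4a2, Col5a1, Col5a2, Col6a1, Col6a2, Col6a3, Col8a1, Col12a1, Col14a1, Col15a1 and Col18a1), the up to 10 members per direction past the threshold with the largest change, and up to 3 genes per list by smallest p. Other members are named with their levels only, chosen after their values were seen. The members and the gene lists were chosen with earlier results of these data known. Scripts were tested on simulated data.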

Additional observations from a re-analysis of the deposited data

How the results depend on the processing

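Of the values recomputed under other settings, 239 summary values stayed within 1.5 times of, or on the same side as, the reported one and 29 moved; of the values of single genes 715 kept direction and side of the threshold, 41 lost the threshold and 2 reversed. The cause was not tested for any of them unless named. With the GOF library added as a block, and so more sums and genes tested, members higher numbered 6 (mural against fibroblast), 2 (mesothelial against fibroblast) and 2 (blood endothelial against fibroblast), and members lower in mesothelial against mural cells 7. Blood endothelial members higher also numbered 1 with a gate of 2 markers, 1 with only those classes fitted, and 0 to 1 without 1 library. With DESeq2 members higher in GOF numbered 0 in fibroblasts, 0 in mesothelial cells and 2 in mural cells. Without the low-count filter they numbered 4 in mesothelial cells and 2 in blood endothelium, and members lower in the mesothelial interaction 3; without TMM that last count was 1. With a gate of 2 markers, members higher in GOF numbered 0 in mesothelial cells and 1 in blood endothelium, members lower in mural cells 1, and members higher in the mural interaction 1 (Col1a2). Leaving out 1 wild-type library gave 0 to 3 members higher in GOF fibroblasts, 2 to 4 in mesothelial cells, and in the mesothelial interaction 0 to 1 higher and 2 to 2 lower. GOF against wild-type mural cells, and their interaction, could not be fitted without WT2 or WT3, since no residual degree of freedom is left. In mural cells with no fibroblast marker UMI, members higher numbered 5, and Col1a1 (-0.16) and Col5a2 (-0.018) reversed. The wild-type mural mixture was 27.4% fibrillar and 62.6% basement membrane with a gate of 2 markers, and 76.7% basement membrane with the epithelial level subtracted. Of the wild-type calls followed through every setting, 12 of 14 held in mural against fibroblast, 6 of 10 in mesothelial against fibroblast, 11 of 13 in mesothelial against mural and 11 of 11 in blood endothelial against fibroblast. Leaving out 1 wild-type library gave 2 members higher and 10 to 11 lower in mural cells against fibroblasts, and 1 higher and 6 to 12 lower in mesothelial cells against fibroblasts. In GOF comparisons 0 of 1, 2 of 4 and 4 of 11 held in fibroblasts, mesothelial and mural cells.

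Without the replicate block, wild-type members higher and lower numbered 2 and 11 (mural against fibroblast), 1 and 7 (mesothelial against fibroblast), 9 and 4 (mesothelial against mural), 0 and 12 (blood endothelial against fibroblast) and 0 and 0 (Pi16). No paired analysis was possible for GOF against wild type, because there was a single GOF library and no label pairs it with a wild-type library. Without TMM the median log2 difference of all genes moved from -0.07 to 0.15 in GOF fibroblasts, from -0.05 to 0.11 in mesothelial and from 0.0045 to 0.27 in mural cells, with no member's direction reversed among the calls followed. It moved from 0.12 to 0.26 in mesothelial against mural cells and from -0.07 to 0.14 in blood endothelial cells against fibroblasts. With DESeq2 72 genes were higher and 58 lower in GOF mural cells, in place of 532 and 282, and 52 and 38 in blood endothelium, in place of 262 and 121; the interactions gave 0 and 0 (mesothelial) and 6 and 2 (mural) in place of 8 and 7 and of 39 and 4. Small mural and endothelial sums limit what could be seen there.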

Other observations

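A few further values come from endothelium and epithelium. Col23a1, a transmembrane collagen, was at 228, 148 and 128 CPM in wild-type lymphatic endothelium and at 215 in GOF, against 0, 0 and 12.7 in wild-type blood endothelium and 0 UMIs in wild-type fibroblasts, mesothelial and mural cells. It is not among the markers that gated the class. Col13a1, another transmembrane collagen, was at 45.8, 0 and 25.3 CPM in wild-type blood endothelium, on 6 UMIs in all. In epithelium the UMI ratio of Col4a3 to Col4a4 was 1.45 in GOF and 0.318 to 0.381 in the wild-type libraries.

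Cells that carried fibroblast and mesothelial markers together numbered 215 in GOF and 24, 133 and 32 in the wild-type libraries, with 12071 and 6540, 10949 and 8804 collagen CPM. They were left out of both classes.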
